A study of Rattus norvegicus with 4 samples.

Results

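The regional identity transcription factors examined here are 46 genes that set or mark the identity of neurons in the hindbrain or the forebrain. They were chosen by name, with earlier results of these data known. Of the 46, 33 had a probe that could be named through its RefSeq accession (43 probes in all), among 15443 genes named on the array. The other 13 (Zic4, Meis2, Eomes, En1, Rora, Irx3, Emx1, Cux1, Bcl11b, Mef2c, Dlx2, Dlx6 and Sp8) had no named probe and were not analysed here.

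RNA came from male rats selected out of 106 animals by the time they spent immobile in the forced swimming test, a behavioural measure of a depressive-like state. The depressive group showed that behaviour and the control group had average scores; no drug, transgene or other manipulation is named, and the strain and age are not given in the sources used here. The prefrontal cortex was taken as a 1 mm slice between 3.2 and 4.2 mm in front of the bregma and the cerebellum as a 1 mm slice between 9.8 and 10.8 mm behind it, 1 week after the test. Each of the 4 groups, that is each tissue in the control and in the depressive state, was 1 RNA pool of 4 rats on 1 array, and all 4 arrays were on 1 slide. A comparison of a single pair of arrays therefore has no replicate check and no p-value. Slices are whole tissue, so fewer cells of a type and less RNA per cell cannot be told apart.

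During development the cerebellum and the cerebral cortex are laid out by different sets of transcription factors, proteins that bind DNA and switch other genes on or off. The rhombic lip, at the edge of the hindbrain, gives rise to cerebellar granule cells, and the ventricular zone of the cerebellum gives rise to Purkinje cells and inhibitory interneurons. The cortex takes its excitatory neurons from progenitors of the dorsal forebrain and most of its inhibitory neurons from the ventral forebrain. Many of these factors stay expressed in the adult neuron and keep its identity.

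The arrays were first set against their labels. The deposited value table, whose columns carry the sample names, matched 1 scanner file per sample at r of 0.99994 or more across probes, but the control prefrontal cortex and depressive cerebellum columns matched each other's linked files and correlated with their own at 0.933. The description field of both depressive samples also names the other tissue. The value table was followed. With files as linked, 1 of the 33 members would differ by 2-fold or more between tissues and 27 between states within each tissue. Neuron markers of the 2 tissues gave the same reading of tissue: 9 of 9 cerebellar neuron markers were higher in the cerebellum by 2-fold or more in both states, and 6 of 8 cortical neuron markers were lower. These markers do not separate control from depressive arrays. Between 22201 and 23759 of 30367 probes were well above background per array, the scanner software's flag for a spot above the array's noise. All 33 members were well above background on both arrays of at least 1 tissue, and 20 were so on all 4 arrays.

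The members split sharply between the tissues. In the control pools, 16 of 33 members were higher in the cerebellum by 2-fold or more and 11 were lower, and the counts in the depressive pools were also 16 and 11. Over all named genes measured, 24.0% differed by 2-fold or more between tissues in the control pools (9.91% higher and 14.0% lower in the cerebellum) and 23.6% in the depressive pools (9.12% higher and 14.5% lower). The same 27 members (81.8%) passed 2-fold in both states in the same direction, against 20.8% of all named genes (8.04% higher and 12.8% lower). Of them, 21 passed 8-fold in both states, against 3.76% of all named genes. The median size of the tissue difference was 3.85 on the log2 scale over the members in the control pools and 3.75 in the depressive pools, against 0.46 over all named genes in either state. Among the 20 members well above background on all 4 arrays, 15 differed by 2-fold or more in each state, 10 higher and 5 lower. The share of all named genes under that filter is not given here, so this count has no comparison. The members were listed because they are known as regional factors, so these counts describe them and are no independent evidence of a regional difference.

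A limma fit over the 4 arrays, with tissue as the effect and state as a block, uses the 2 states as the replicates of a tissue and leaves 1 residual degree of freedom. Of the 33 members, 18 were higher and 14 lower in the cerebellum at a limma adjusted p under 0.05, over 12449 genes fitted. The share over all genes fitted was 69.6% (32.4% higher and 37.2% lower), so a call in this fit says little about a single gene and the size of the difference is the more telling value. Lhx9 was the member not called, with a limma adjusted p of 0.875. Adjusted p-values of the 32 called members ran from 0.000802 to 0.031.

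**Figure D1:**
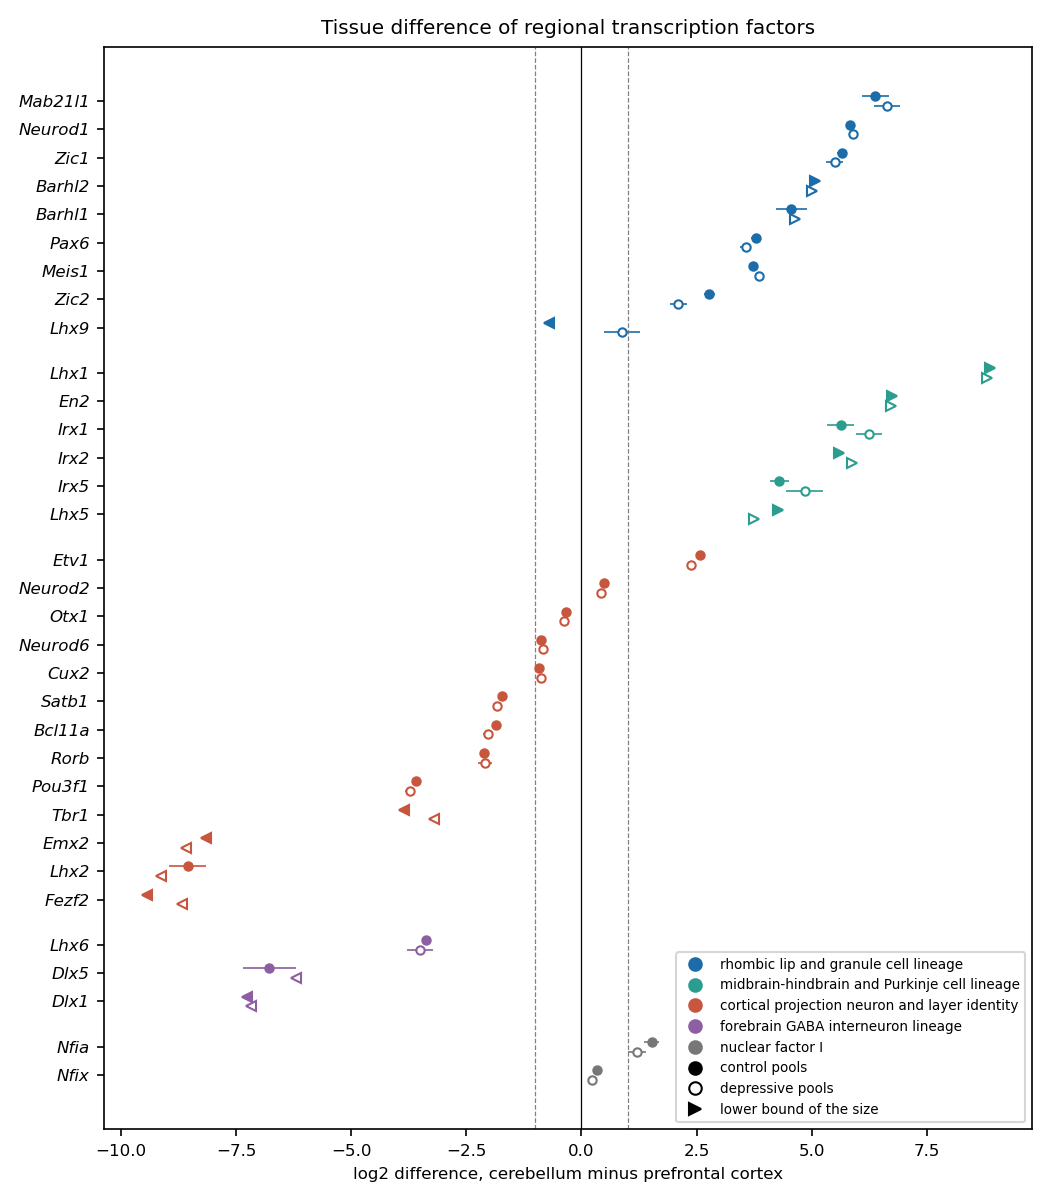
Log2 difference between cerebellum and prefrontal cortex (x axis) for the 33 members (rows), grouped by role, in the control pools (filled) and depressive pools (open). Bars are the SE between repeated spots, triangles are bounds where an array was not well above background, and dashed lines mark 2-fold. Members of the rhombic lip and midbrain-hindbrain groups lie to the right except Lhx9, 8 of 13 cortical members and all 3 interneuron members lie left of the 2-fold line, and filled and open points lie close together.

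**Figure D2:**
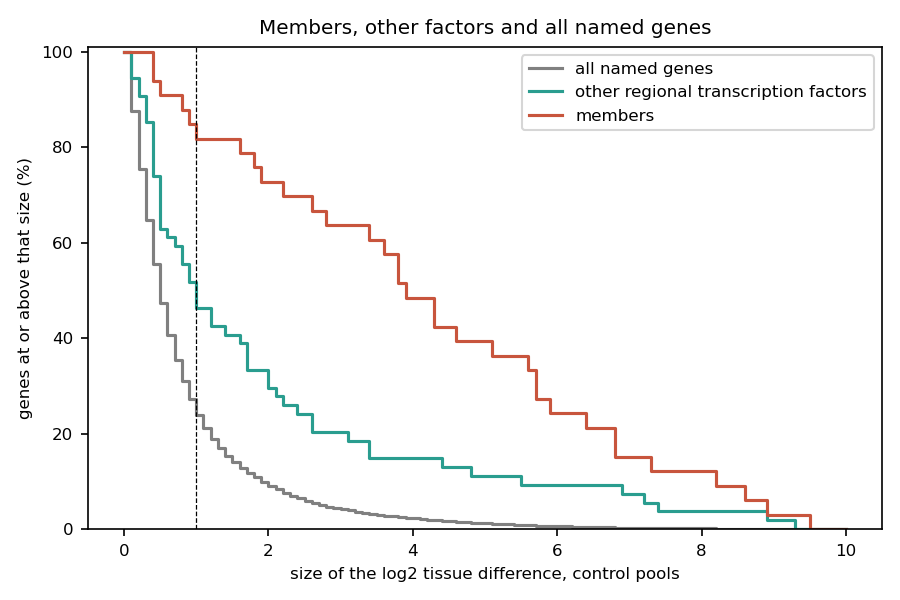
Share of genes (y axis, percent) whose tissue difference in the control pools was at least the size on the x axis (log2), for the 33 members, 54 other regional transcription factors and 12914 named genes measured. At a log2 size of 1 the shares were 81.8%, 46.3% and 24.0%, and at 4 they were 48.5%, 14.8% and 2.22%.

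The promoters of the members with the largest differences on each side are shown here, since these genes were near background in 1 tissue and strongly expressed in the other. They are Lhx1 and En2, higher in the cerebellum, and Fezf2 and Lhx2, higher in the prefrontal cortex. The sequences are the 250 bases before the annotated start of the gene, from RefSeq assembly GRCr8, written 5′ to 3′ on the strand of the gene. Lhx1 lies at chr10:69901077-69901326 (minus strand), En2 at chr4:7960794-7961043 (minus strand), Fezf2 at chr15:15203943-15204192 (plus strand) and Lhx2 at chr3:42535494-42535743 (plus strand). Capitals mark each match to the GC box GGGCGG on either strand, a motif bound by factors of the Sp family.
Lhx1: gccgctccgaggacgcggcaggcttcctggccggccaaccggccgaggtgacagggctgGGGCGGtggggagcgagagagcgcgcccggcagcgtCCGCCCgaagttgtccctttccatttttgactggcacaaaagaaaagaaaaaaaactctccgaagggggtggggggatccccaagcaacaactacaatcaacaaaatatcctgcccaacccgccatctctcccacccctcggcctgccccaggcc
En2: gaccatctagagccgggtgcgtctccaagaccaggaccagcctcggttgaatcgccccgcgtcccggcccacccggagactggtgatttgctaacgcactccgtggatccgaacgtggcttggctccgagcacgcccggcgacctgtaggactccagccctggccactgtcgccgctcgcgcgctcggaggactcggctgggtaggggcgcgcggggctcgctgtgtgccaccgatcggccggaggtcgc
Fezf2: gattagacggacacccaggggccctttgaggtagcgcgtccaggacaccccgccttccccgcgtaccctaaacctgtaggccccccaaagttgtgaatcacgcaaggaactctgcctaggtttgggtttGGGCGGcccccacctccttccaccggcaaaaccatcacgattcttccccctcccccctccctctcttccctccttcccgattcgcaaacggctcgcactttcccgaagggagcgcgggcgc
Lhx2: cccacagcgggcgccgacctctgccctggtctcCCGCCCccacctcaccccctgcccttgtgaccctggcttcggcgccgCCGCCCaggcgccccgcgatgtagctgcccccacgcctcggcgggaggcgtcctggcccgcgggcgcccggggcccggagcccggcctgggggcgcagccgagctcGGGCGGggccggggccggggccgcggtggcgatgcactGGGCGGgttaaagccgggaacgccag
The GC box occurred 2 times before Lhx1, 1 time before Fezf2 and 4 times before Lhx2, and not in the En2 window, although that window holds 31 CpG dinucleotides and 70% G or C. The windows of Lhx1, Fezf2 and Lhx2 hold 18, 18 and 33 CpG dinucleotides.

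Of the 46 members, 32 had a promoter entry. Their median was 16.5 CpG dinucleotides in 250 bases, against 6 over 27457 promoters of the same length. The GC box was found in 21 of the 32 windows (65.6%), against 32.4% of all promoters. The 12 members with an entry that were higher in the cerebellum had a median of 19.5 CpG dinucleotides and a GC box in 9 windows (75%). The 8 that were lower had a median of 14.5 and a GC box in 4 windows (50%). The homeodomain core TAATTA was found in 2 of 32 windows (4.94% of all promoters), the E-box CAGATG in 5 (13.7%), the E-box CAGCTG in 2 (11.9%), and the TATA box TATAAA in 2 (13.1%), each searched on both strands. The TAATTA matches were before Mab21l1 and Tbr1. The 50 other regional transcription factors with an entry had a median of 18.5 CpG dinucleotides and a GC box in 54%. A match is a run of letters and no measured binding.

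Among the rhombic lip and granule cell members, 8 of 9 with a probe were higher in the cerebellum by 2-fold or more in both states. Neurod1, a basic helix-loop-helix factor that granule cells need to mature and survive, had processed signals of 63692 in control and 66653 in depressive cerebellum, and of 871 and 846 in control and depressive prefrontal cortex. It was thus 56.9-fold higher in the cerebellum in the control pools (log2 5.83, SE 0.05 between spots) and 59.1-fold in the depressive pools. The SE between spots is that of repeated spots of equal brightness on an array; it covers measurement error and not the spread between animals. Both cerebellar arrays stood far above both cortical arrays.

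Mab21l1, a gene of the mab-21 family expressed in the developing cerebellum and eye, showed the largest measured fold of this group. Its signals were 4685 and 5023 in control and depressive cerebellum and 43.8 and 38.0 in the prefrontal cortex, which is 83.3-fold in the control pools (log2 6.38, SE 0.29) and 99.1-fold in the depressive pools (log2 6.63, SE 0.28). The probe used was on 1 spot per array, and a second probe gave 928 and 960 in the cerebellum and was not well above background in the prefrontal cortex. Both probes placed the gene on the cerebellar side.

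Zic1 and Zic2 are zinc finger factors of granule cell progenitors. Zic1 had signals of 7372 and 7421 in control and depressive cerebellum and 114 and 123 in the prefrontal cortex, 50.3-fold (log2 5.65, SE 0.11) and 45.2-fold (log2 5.50, SE 0.18) higher in the cerebellum. Zic2 was less uneven, with 1017 and 820.5 in the cerebellum and 116 and 143 in the prefrontal cortex. Its difference was 6.84-fold in the control pools (log2 2.77, SE 0.12) and 4.29-fold in the depressive pools (log2 2.10, SE 0.18). Both genes were well above background in both tissues and both states. Zic1 and Zic4 are neighbours in the RefSeq gene order, as are Zic2 and Zic5, and Zic4 had no named probe. Meningeal markers were also higher in the cerebellum, 7 of 7 by 2-fold or more in the control pools and 5 of 7 in the depressive pools. Their part in the Zic1 and Zic2 tissue differences was not tested.

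Barhl1 and Barhl2 are homeodomain factors of the rhombic lip, Barhl1 acting in granule cell migration and survival. Barhl1 gave 445 and 403 in control and depressive cerebellum, 14.7 in control prefrontal cortex and 12.2 in depressive prefrontal cortex, the last not well above background. In control prefrontal cortex 1 of its 2 spots (10.04 and 21.6) was well above background. By their mean it was 23.5-fold higher in the cerebellum in the control pools (log2 4.55, SE 0.33). In the depressive pools it was 24.8-fold higher (log2 4.63, SE 0.59), a bound set by its own dim signal. Barhl2 gave 389 and 379 in the cerebellum and was not well above background in either cortical pool, so that it was at least 33.7-fold and at least 32.1-fold higher. Neither gene came near its cerebellar level on any cortical array.

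Pax6, a paired-box factor of both granule cell and cortical progenitors, was on the cerebellar side in these adult tissues. Its signals of 3277 and 3513 in the cerebellum and 185 and 222 in the prefrontal cortex differed 13.8-fold (log2 3.78, SE 0.11) in the control pools and 11.9-fold (log2 3.57, SE 0.12) in the depressive pools. Meis1, a TALE homeodomain cofactor, had 17687 and 19742 in the cerebellum and 1033 and 1029 in the prefrontal cortex, 13.3-fold and 14.4-fold higher. Its second probe differed by a log2 of 3.93 and 3.72, close to the first.

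Lhx9, a LIM homeodomain factor of deep cerebellar nucleus precursors and the thalamus, was the exception in the group. The probe used gave 9.47 (not well above background) and 73.8 in control and depressive cerebellum and 12.0 and 30.1 in control and depressive prefrontal cortex. Those values rest on spots that disagree: the 2 spots read 4.89 and 18.3, 6.82 and 800, 4.06 and 35.3, and 9.48 and 95.8 in the same order of arrays. In 3 pools 1 spot was well above background and the other was not, and in control cerebellum neither was. The second Lhx9 probe gave 23.8 in control cerebellum, the only array on which it was well above background. No tissue difference is therefore read for Lhx9.

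All 6 midbrain-hindbrain and Purkinje cell members with a probe were higher in the cerebellum in both states. Lhx1, a LIM homeodomain factor of Purkinje cells, showed the highest bound of any member on this side. Its signals were 5387 and 5251 in control and depressive cerebellum and 3.91 and 3.74 in the prefrontal cortex, neither of the latter well above background. That is at least 467-fold and at least 444-fold. Lhx5, which acts with Lhx1 in Purkinje cell differentiation, gave 241 and 243 in the cerebellum and was not well above background in the prefrontal cortex. It was 19.4-fold and 13.5-fold higher in the cerebellum (SE 0.57 and 0.59 on the log2 scale), bounds set by its own dim cortical signals.

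En2, an engrailed homeodomain factor that patterns the midbrain and the cerebellar folds, had signals of 1239 and 1246 in control and depressive cerebellum. On the cortical arrays it read 4.01 and 3.82, not well above background, which makes it at least 107-fold and at least 105-fold higher in the cerebellum. The 2 cerebellar pools were nearly equal. Its paralogue En1 had no named probe.

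The Iroquois homeodomain genes, which pattern the neural plate and lie in gene clusters, were uniformly cerebellar. Irx1 had 3097 and 3385 in control and depressive cerebellum and 48.8 and 33.7 in the prefrontal cortex, 49.4-fold (log2 5.63, SE 0.29) and 75.4-fold (log2 6.24, SE 0.28) higher. Irx2 gave 557 and 694 in the cerebellum and was not well above background in the prefrontal cortex, at least 48.2-fold and at least 58.7-fold higher. Irx5 gave 831 and 917 against 32.9 and 23.9, which is 19.6-fold (log2 4.30, SE 0.21) and 28.7-fold (log2 4.84, SE 0.39). Irx1 and Irx2 are direct neighbours on chromosome 1, and Irx5 lies beside Irx3 on chromosome 19 in the RefSeq gene order, so genes of both clusters showed the same side. A second Irx1 probe was not well above background on any array, so the Irx1 values rest on 1 probe with 1 spot. The Irx2 probe used was also on 1 spot. The second Irx2 probe was well above background in both cerebellar pools and in neither cortical pool.

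**Figure D3:**
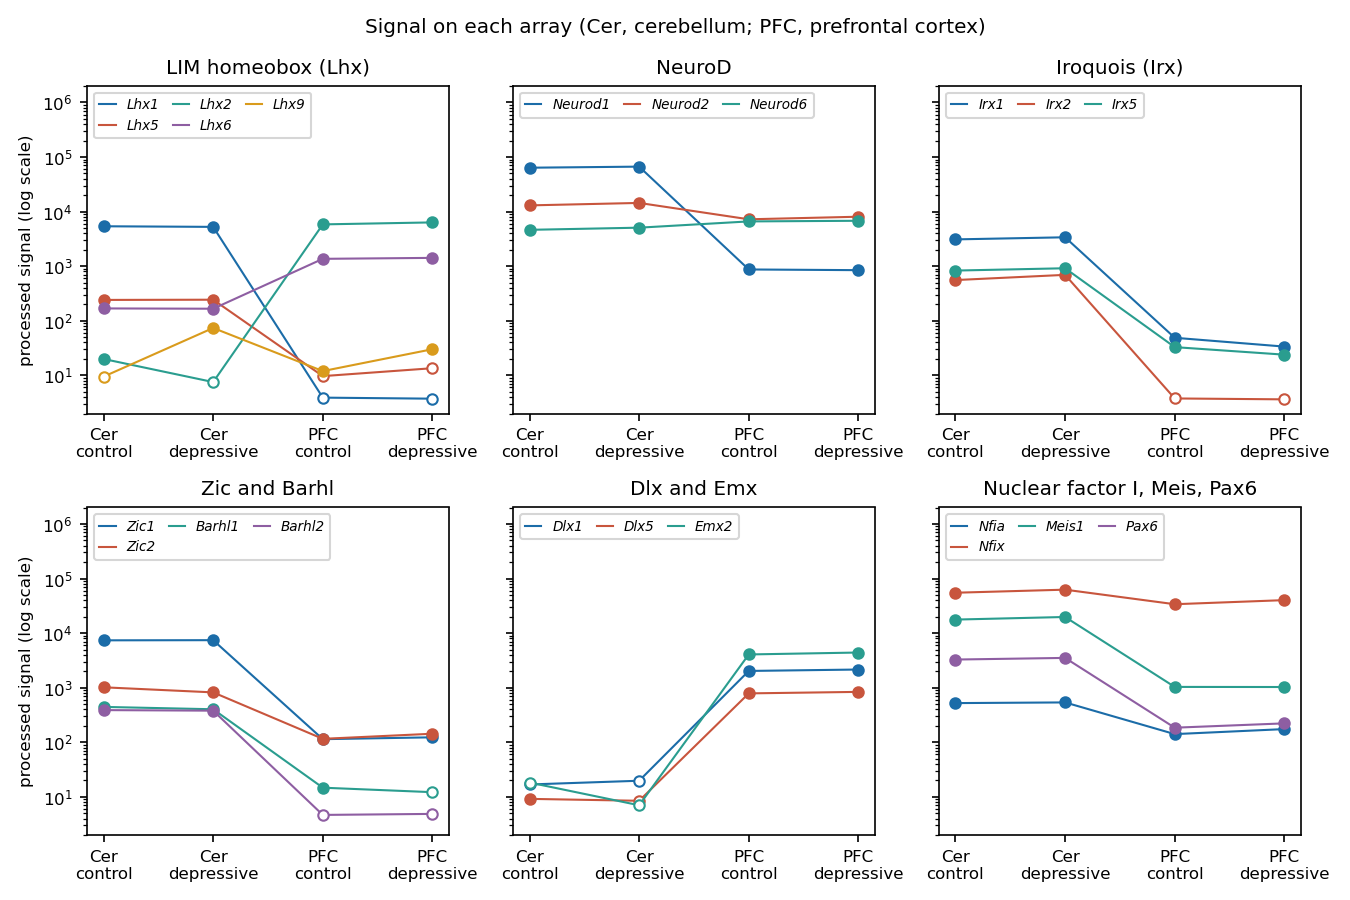
Processed signal (y axis, log scale) on each of the 4 arrays (x axis) for members of 6 groups; filled points were well above background and open points were not. Lines join the arrays of a gene, and heights of different genes cannot be compared because each is a different probe. Within the LIM homeobox genes, Lhx1 and Lhx5 were high in the cerebellum and Lhx2 and Lhx6 in the prefrontal cortex, while the 3 Iroquois genes shared a direction.

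On the cortical side, 8 of 13 members of the projection neuron and layer group were lower in the cerebellum by 2-fold or more in both states, 1 was higher, and 4 stayed within 2-fold. Fezf2, a zinc finger factor that specifies subcortically projecting neurons of the deep layers, had signals of 4523 and 4678 in control and depressive prefrontal cortex. In the cerebellum it read 7.38 and 7.70, not well above background, at least 696-fold and at least 410-fold lower. Emx2, a homeodomain factor that patterns the cortical area map, gave 4064 and 4407 in the prefrontal cortex and was not well above background in the cerebellum. In the control pools it was 286-fold lower (SE 0.56 on the log2 scale), a bound set by its own dim signal. In the depressive pools it was at least 386-fold lower. Its probe was on 1 spot per array. Lhx2, a selector of cortical identity, gave 5831 and 6341 in the prefrontal cortex and 19.97 and 7.54 in the cerebellum, the latter not well above background. In control cerebellum 1 of its 2 spots (25.8 and 15.4) was well above background, and the 375-fold lower value there (log2 -8.55, SE 0.40) rests on their mean. It was at least 556-fold lower in the depressive cerebellum. On the cerebellar arrays these 3 factors were near or below the level counted as well above background.

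Other members of the group differed by less. Pou3f1, a POU factor of projection neurons, had 4151 and 4494 in the prefrontal cortex against 443 and 451 in the cerebellum, 12.0-fold (log2 -3.59, SE 0.06) and 13.3-fold lower in the cerebellum. Rorb, a nuclear receptor typical of layer IV, had 558 and 589 against 165 and 184, 4.34-fold and 4.27-fold. Bcl11a, a zinc finger factor of cortical neurons, had 1519 and 1645 against 543 and 534, 3.59-fold and 4.11-fold. Satb1, a chromatin organiser found in cortical interneurons and projection neurons, had 20236 and 24015 against 7846 and 9033, 3.32-fold and 3.54-fold. All 4 genes were measured well above background in both tissues.

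Tbr1, a T-box factor of layer VI neurons, was dim even on its own side. It had signals of 93.7 and 105 in control and depressive prefrontal cortex and was not well above background in the cerebellum, at least 14.4-fold and at least 9.20-fold lower. The probe was on 1 spot per array.

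Within 2-fold between the tissues were 4 members known from cortical neurons. Neurod2, a basic helix-loop-helix factor of excitatory neurons, gave 12998 and 14418 in the cerebellum and 7228 and 8059.8 in the prefrontal cortex. After scaling it was 1.40-fold (log2 0.48, SE 0.05) and 1.34-fold higher in the cerebellum. Neurod6, a close relative, was 1.83-fold (log2 -0.87, SE 0.05) and 1.78-fold lower in the cerebellum, with signals of 4635 and 5077 against 6612 and 6791. Cux2, a homeodomain factor of upper cortical layers, was 1.91-fold and 1.84-fold lower, just inside 2-fold, while a second of its 3 probes gave a log2 of -1.91 and -1.64. Otx1, a homeodomain factor of deep layers, was 1.26-fold and 1.30-fold lower. The NeuroD family thus held 1 member far higher in the cerebellum, Neurod1, and a pair within 2-fold.

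Etv1 was the member of the cortical group with the opposite direction. This ETS factor marks layer V neurons and is also known from cerebellar granule cells. It gave 9286 and 9428 in control and depressive cerebellum and 1219 and 1366 in the prefrontal cortex, 5.93-fold (log2 2.57, SE 0.05) and 5.18-fold (log2 2.37, SE 0.06) higher in the cerebellum.

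All 3 forebrain GABA interneuron members with a probe were lower in the cerebellum. Dlx1, a distal-less homeodomain factor of the ventral forebrain, had 2027 and 2152 in control and depressive prefrontal cortex and was not well above background in the cerebellum. It was 155-fold and 145-fold lower (SE 0.56 and 0.73 on the log2 scale), bounds set by its own dim cerebellar signals. Its probe was on 1 spot per array. Dlx5, of the same family, had 786 and 838 in the prefrontal cortex and 9.19 and 8.47 in the cerebellum, the latter not well above background. In control cerebellum its spots read 18.8 and 4.49, the second not well above background, so no exact fold is read there. It was at least 73.5-fold lower in the depressive cerebellum. Lhx6, a LIM homeodomain factor of interneurons from the medial ganglionic eminence, had 1364 and 1420 against 168 and 166, 10.4-fold and 11.4-fold lower. Dlx1 and Dlx5 each lie beside a member without a named probe, Dlx2 and Dlx6.

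The nuclear factor I genes are general regulators of neuron and glia maturation. Nfia gave 522 and 537 in control and depressive cerebellum and 141 and 174 in the prefrontal cortex, 2.88-fold (log2 1.53, SE 0.17) and 2.31-fold higher in the cerebellum. The Nfia probe used was on 1 spot per array, and a second Nfia probe gave a log2 of 0.86 in both states, under 2-fold. Nfix had 54899 and 62504 in the cerebellum and 33818 and 40182 in the prefrontal cortex, 1.26-fold and 1.17-fold higher in the cerebellum.

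A list of 78 other regional transcription factors gave a smaller split. Of its 63 genes with a named probe, 54 were measured in both states, and 12 were higher and 12 lower in the cerebellum by 2-fold or more in both, or 44.4% against 81.8% of the members. Both lists were chosen with earlier results of these data known. The gap between their shares therefore describes the choice of genes and is no independent result. The largest on the cerebellar side were Uncx (165-fold in the control pools and 191-fold in the depressive pools), Otx2 (140-fold and 499-fold), Lmx1a (at least 45.1-fold and at least 77.7-fold), Ebf3 (at least 27.5-fold and 13.6-fold) and Dmbx1 (at least 20.4-fold and at least 24.4-fold). The depressive Otx2 value (SE 0.58 on the log2 scale) is a bound set by its own dim cortical signal. On the cortical side, Lmo4 was 10.5-fold and 10.2-fold and Ldb2 4.54-fold and 5.34-fold lower in the cerebellum. Otx2 and Lmx1a are also known from the choroid plexus, and all 6 choroid plexus markers were higher in the cerebellum, with a summed signal of 702683 and 743900 against 25997 and 6571. That sum is mostly the signal of Ttr (681801 and 706335 against 25617 and 6076). The part of choroid plexus in the Otx2 and Lmx1a values was not tested.

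Between states, the tissue difference of the members varied as follows. Over the 20 members well above background on all 4 arrays, the difference in the depressive pools minus that in the control pools had a median size of 0.14 on the log2 scale, against 0.09 over 11616 named genes. It was under 1.2-fold for 16 of the 20 (80%), against 85.9% of all named genes, and largest for Zic2 at a size of 0.67.

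The study's own question concerned depressive against control rats, and on that axis the members differed little. Of the 29 members measured in the cerebellum, 1 (Lhx9) differed by 2-fold or more, against 1.10% of all named genes. Of the 28 measured in the prefrontal cortex, 1 (again Lhx9) did, against 0.788%. The median difference, depressive minus control, was -0.06 in the cerebellum and 0.03 in the prefrontal cortex over the members, and -0.03 and -0.00 over all named genes. At 1.2-fold, 4 of 29 members (13.8%) passed in the cerebellum, against 13.7% of all named genes, and 5 of 28 (17.9%) in the prefrontal cortex, against 10.4%.

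The limma fit of state with tissue as a block called 0 of the 20 members well above background on all 4 arrays, with a lowest adjusted p of 0.678, and 0 at an unadjusted p under 0.05. Over all 11616 genes it called 0 after adjustment and 871 (7.50%) at an unadjusted p under 0.05. The same fit on normexp-corrected values also called 0 members. The labels do not say whether both tissues of a state came from the same rats.

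**Figure D4:**
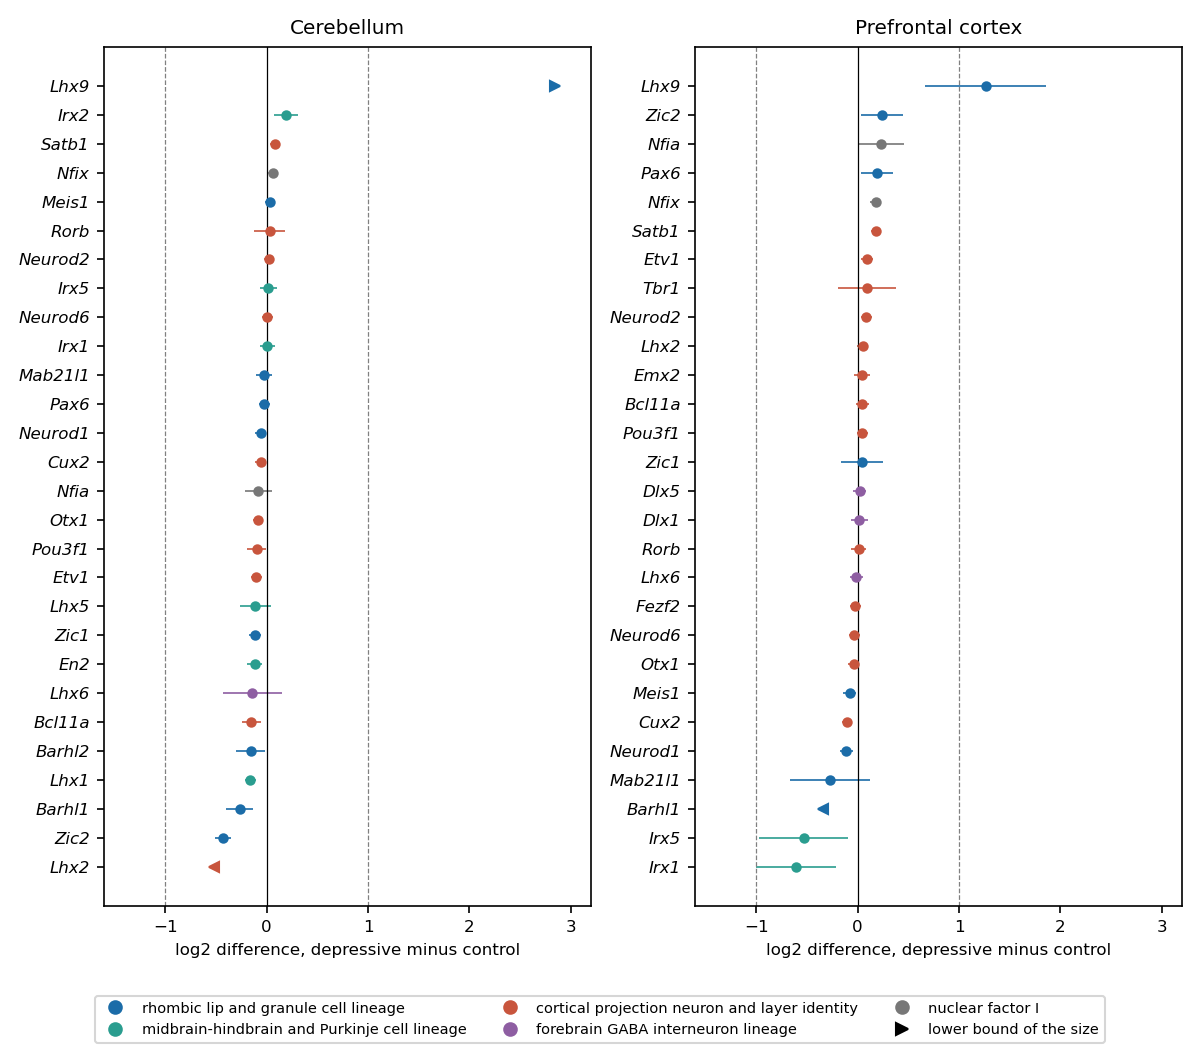
Log2 difference, depressive minus control (x axis), of the members measured in the cerebellum (left) and the prefrontal cortex (right), ordered by size, with the SE between repeated spots as bars and bounds as triangles (Dlx5 in the cerebellum, whose bound gives no fold, is not drawn). Dashed lines mark 2-fold; apart from Lhx9 every point lies between them, and members with long bars were dim.

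In the cerebellum, 23 of the 26 members well above background in both pools lay within 2 SE between spots of 0. The 3 past it were Zic2, Lhx1 and Zic1. The share of all named genes by this rule is not given here, so the count describes the members alone. Among the 26, the largest negative difference was that of Zic2, from 1017 in the control pool to 820.5 in the depressive pool, a log2 of -0.43 (SE 0.08). Barhl1 was at -0.27 (SE 0.14), Lhx1 at -0.16 (SE 0.06), Barhl2 at -0.16 (SE 0.14) and Bcl11a at -0.15 (SE 0.09). Lhx2, not well above background in the depressive pool, was at least 1.43-fold lower there (log2 -0.52 or below), with 1 of its 2 control spots well above background. On the other side Irx2 was at 0.19 (SE 0.12), Satb1 at 0.08 (SE 0.05), Nfix at 0.06 (SE 0.05), Meis1 at 0.04 (SE 0.05) and Rorb at 0.03 (SE 0.16). Among these 26, Zic2 was the only member both past 1.2-fold and past 2 SE between spots. Cerebellar neuron markers were also slightly lower in the depressive pool, 9 of 9 below 0 with a median of -0.12, and choroid plexus markers were higher, with a median of 0.73. All 3 red blood cell markers were over 2-fold higher in the depressive pool of both tissues, with medians of 1.74 in the cerebellum and 1.72 in the prefrontal cortex; Hbb, a haemoglobin chain, was 7.51-fold and 5.48-fold higher. The part of these cell types in the state differences of the members was not tested.

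Lhx9 in the cerebellum read 7.16-fold higher in the depressive pool (log2 2.84, SE 0.66), a bound set by its own dim control signal. In the prefrontal cortex it read 2.40-fold higher (log2 1.26, SE 0.60). Both values are log means over the disagreeing spots described above, of which 1 at most was well above background on each array. Each SE is that of spots of equal brightness and understates the disagreement between the Lhx9 spots. The other Lhx9 probe read 23.8 in the control and 14.5, not well above background, in the depressive cerebellum, the opposite order. Under a normexp background correction the differences were 1.28 and 0.31 on the log2 scale, and the mean over both probes gave 1.00 in the cerebellum.

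In the prefrontal cortex, 23 of 27 members well above background in both pools lay within 2 SE between spots of 0. The 4 past it were Lhx9, Satb1, Nfix and Cux2. For Lhx9 the SE is that of other spots of equal brightness, and its own spots disagreed far more. Its place among the 4 is therefore not read as a difference. Here too the share of all named genes by this rule is not given. Among these 27, the largest negative differences were those of 3 genes that are high in the cerebellum: Irx1 at -0.61 (SE 0.40), from 48.8 to 33.7, Irx5 at -0.53 (SE 0.44), from 32.9 to 23.9 with 1 of 2 spots well above background in the depressive pool, and Mab21l1 at -0.27 (SE 0.40), from 43.8 to 38.0. Neurod1 and Cux2 followed at -0.11 (SE 0.06 and 0.05). Barhl1, not well above background in the depressive pool, read 1.27-fold lower there (log2 -0.34, SE 0.67), a bound set by its own dim signal. Beside these values, 8 of 9 cerebellar neuron markers were also below 0 in the depressive prefrontal cortex, with a median of -0.33, among them Gabra6 from 104 to 44.4 and Pcp2 from 619 to 277. Of these, 3 were lower by 2-fold or more (Pcp2, Gabra6 and Ppp1r17). The summed signal of the 9 markers, 16505 and 16152 in control and depressive prefrontal cortex, is mostly that of Grm4 (11000.1 and 11677), the marker above 0. Their part in the Irx1, Irx5 and Mab21l1 values was not tested.

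On the positive side, after Lhx9, Zic2 was at 0.24 (SE 0.20), from 116 to 143, and Nfia at 0.24 (SE 0.22), from 141 to 174. Pax6 was at 0.19 (SE 0.16) and Nfix at 0.18 (SE 0.05). Meningeal markers were higher in the same pool, 7 of 7 above 0 with a median of 0.87, and their summed signal was 58756 in control and 122196 in depressive prefrontal cortex. Their part in the Zic2 and Nfia values was not tested. Of the 13 cortical identity genes, 0 passed 1.2-fold in the prefrontal cortex. Their differences ran from -0.11 (Cux2, SE 0.05) to 0.18 (Satb1, SE 0.05), and these extremes were past 2 SE between spots. Dlx1, Dlx5 and Lhx6 lay between -0.01 and 0.02.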

How the data were processed

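Per the file headers, the authors processed the scans with Agilent Feature Extraction 10.7.1.1 (protocol GE1_107_Sep09, header build rn4). The deposited scanner files hold a background-subtracted processed intensity per spot, on a linear scale, and flags. The deposited value table holds an intensity per probe; the sources used here do not give its scaling or how probes were selected.

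Outlier and control spots were left out, log2 intensity was averaged over a probe's spots, and values were scaled to the 75th percentile of the array (signals are printed unscaled). A probe was well above background where at least 50% of its spots were so marked. Of 30367 probes, 22031 had a RefSeq accession and 18355 were named through the GRCr8 table. The brightest probe stood for a gene, and levels of different probes were not compared. Against an array not well above background, a fold is a bound: the higher of that array's lowest signal well above background (8.36 to 15.2) and the probe's own signal was used. Where the probe's own signal was the higher, the bound equals the measured difference and carries its spot error. This holds for the bounds printed for Barhl1, Lhx5, Dlx1, Lhx9, Otx2 and, in the control pools, Emx2. Fits used limma 3.58.1 in R 4.3.3 (lmFit, eBayes, Benjamini-Hochberg), tested on simulated data; the rest used Python 3.11.15. The normexp alternative used median spot signals, as the files have no mean signal column. The number of arrays limits the precision.

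Members and lists were chosen with earlier results of these data known. Named were all members between tissues; between states, the 5 largest differences each way per tissue and any at 2-fold; and the 5 largest other factors each way, some of which are not reported here. Gabra6, Pcp2, Ppp1r17, Grm4, Hbb, the state bounds of Barhl1 and Lhx2 and the opposite-signed genes of the closing section were named after their values were seen. Protein identity between paralogues was not analysed here.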

Additional observations from a re-analysis of the deposited data

Results flagged for a closer look

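Zic2 and Etv1 differed between states in opposite directions in the 2 tissues, each by more than 1 SE between spots, a limit set after the values were seen; at 2 SE in both tissues neither would be named. The depressive minus control difference in the prefrontal cortex minus that in the cerebellum was 0.67 for Zic2 (0.24 against -0.43) and 0.20 for Etv1 (0.09 against -0.10). With 1 pool per group these differences between tissues were not tested.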

How the results depend on the processing

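Median scaling kept every count of members at 2-fold, and quantile normalization all but that of the depressive pools between tissues (28 in place of 27, with 17 higher). With genes well above background on all 4 arrays alone, fewer members entered: 15 differed between tissues in each state (10 higher, 5 lower), the tissue fit called 20, and 0 differed between states in either tissue. Shares of all named genes under that filter are not given here. The value table, which holds the probe used for 26 of the 33 members, gave 10 higher in each state and 0 between states in either tissue. Normexp correction (offset 50) moved 25 of the 33 member tissue differences in the control pools and 26 in the depressive pools. It left 8 and 7 the same. Quantile normalization moved 11 and 16. The sizes of the tissue folds printed above therefore depend on the processing. Normexp correction left 0 members at 2-fold between states in the prefrontal cortex. With the main processing and a limit of 1.5-fold, 2 members passed in the prefrontal cortex, Lhx9 higher and Irx1 lower. The share of all named genes at 1.5-fold is not given here. With files as linked, 1 member differed between tissues in each state (0 higher, 1 lower), 27 differed between states in each tissue (11 higher, 16 lower), the tissue fit called 0 and the state fit 20, since this setting exchanges the contrasts. Under that setting the control tissue differences (log2) that turned sign were Bcl11a 0.15, Irx1 -0.0054, Irx2 -0.19, Irx5 -0.018, Lhx2 0.52, Lhx6 0.14, Meis1 -0.036 and Pou3f1 0.10. The depressive ones were Etv1 -0.094, Fezf2 0.021, Lhx6 0.012, Nfia -0.24, Pax6 -0.19, Zic1 -0.044 and Zic2 -0.24, and Lhx9 in the prefrontal cortex between states was -0.88. Limits: no group has a second array, so leaving out a replicate was not possible. No paired analysis was possible because each group has 1 sample, and the results with a p come from fits that block on tissue or state instead. Without that block the tissue fit called 32 members and the state fit 0. Dim members are measured less well: in the prefrontal cortex the SE between spots of the state difference was 0.40 for Irx1 and 0.06 for Neurod1.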
